A study of Mus musculus with 8 samples.

Results

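The genes of the giant sarcomere proteins and of the myosin-binding proteins, 8 of 22367 protein-coding genes in the annotation, were Ttn, Neb, Mybpc1, Mybpc2, Mybpc3, Mybph, Myom1 and Myom2. They were chosen by gene family, and every ChIP-seq interval that touched a gene body or the 50 kb on either side was assigned to the gene, which gave 63 of 43759 intervals. The cells were C2C12, an established mouse myoblast line of strain C3H, taken 24 h after the change to differentiation medium, with no drug (0 nM, Ctl) or with 50 nM bexarotene (Bex), an agonist selective for retinoid X receptors that was added when differentiation was induced. Myogenin (Myog) and the histone acetyltransferase p300 were each immunoprecipitated in both conditions, with 1 library per condition, and the deposited lists hold the position of each interval and no tag count. The depth behind an interval is therefore unknown, and no difference between conditions has a replicate check or a test. The 4 lists hold 5912 (Myog_Ctl), 6642 (Myog_Bex), 22051 (p300_Ctl) and 9154 (p300_Bex) intervals, and a 95% interval beside a share below is a Wilson interval that covers counting error only.

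The sarcomere is the repeating contractile unit of striated muscle, in which thin actin filaments slide along thick myosin filaments. Titin spans from the Z-disc to the M-band as an elastic ruler of the thick filament, nebulin runs along the thin filament and sets its length in skeletal muscle, the myosin-binding proteins C and H lie on the thick filament, and the myomesins cross-link thick filaments at the M-band. Myogenin, a basic helix-loop-helix factor of terminal muscle differentiation, binds E-boxes as a heterodimer with E proteins, and p300 is a coactivator found at active enhancers.

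The regions on which the results turn are shown first, as reference mm9 sequence (the reference strain, not C3H) read 5′ to 3′. Capitals mark E-boxes, counted throughout as CAGCTG or CACCTG or CAGGTG on either strand. The first set holds the intervals upstream of Ttn and the intron of Neb, the giant protein genes. Regions over 300 bp are cut to 300 bp around the stretch that their lists share.

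Ttn, Myog_Ctl interval at the promoter, chr2:76820820-76820991, plus strand: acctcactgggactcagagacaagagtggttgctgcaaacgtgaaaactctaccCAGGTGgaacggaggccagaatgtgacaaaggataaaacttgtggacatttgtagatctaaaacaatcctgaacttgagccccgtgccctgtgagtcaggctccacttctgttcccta

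Ttn, Myog_Bex interval farther upstream, chr2:76822653-76822864, plus strand: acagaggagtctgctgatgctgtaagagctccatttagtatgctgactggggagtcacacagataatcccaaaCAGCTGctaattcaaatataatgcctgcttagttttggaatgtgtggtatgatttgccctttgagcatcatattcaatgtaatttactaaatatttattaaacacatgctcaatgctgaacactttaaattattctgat

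Ttn, region of all lists in Ccdc141, chr2:76858813-76859112, plus strand: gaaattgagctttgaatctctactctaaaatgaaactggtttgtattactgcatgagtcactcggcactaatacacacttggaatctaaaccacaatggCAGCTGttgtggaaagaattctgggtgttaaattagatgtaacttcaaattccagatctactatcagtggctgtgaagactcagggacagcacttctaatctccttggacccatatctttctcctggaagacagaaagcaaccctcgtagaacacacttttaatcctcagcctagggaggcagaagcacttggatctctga

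Neb, intron 10, chr2:52174504-52174803, plus strand: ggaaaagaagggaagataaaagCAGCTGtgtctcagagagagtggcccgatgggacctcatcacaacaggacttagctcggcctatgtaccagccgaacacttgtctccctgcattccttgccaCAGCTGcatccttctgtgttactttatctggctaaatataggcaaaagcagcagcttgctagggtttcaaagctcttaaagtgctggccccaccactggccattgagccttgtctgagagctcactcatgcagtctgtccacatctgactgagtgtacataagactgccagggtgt

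The second set holds the region upstream of Mybpc1 that every list called and the Mybph regions, because they carry the contrast between a promoter call in 1 condition and E-box clusters called in both.

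Mybpc1, upstream region, chr10:88094332-88094631, plus strand: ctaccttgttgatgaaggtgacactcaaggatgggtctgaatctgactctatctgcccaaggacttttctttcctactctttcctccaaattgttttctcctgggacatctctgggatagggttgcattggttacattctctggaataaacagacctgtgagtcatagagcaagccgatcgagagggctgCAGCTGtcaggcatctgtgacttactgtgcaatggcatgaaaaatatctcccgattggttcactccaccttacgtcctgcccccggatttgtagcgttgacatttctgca

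Mybph, promoter, part before the start, chr1:136089899-136090024, plus strand: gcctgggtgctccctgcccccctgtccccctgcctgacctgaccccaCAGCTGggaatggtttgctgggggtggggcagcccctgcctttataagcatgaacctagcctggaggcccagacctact

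Mybph, intron 3, chr1:136092650-136092949, plus strand: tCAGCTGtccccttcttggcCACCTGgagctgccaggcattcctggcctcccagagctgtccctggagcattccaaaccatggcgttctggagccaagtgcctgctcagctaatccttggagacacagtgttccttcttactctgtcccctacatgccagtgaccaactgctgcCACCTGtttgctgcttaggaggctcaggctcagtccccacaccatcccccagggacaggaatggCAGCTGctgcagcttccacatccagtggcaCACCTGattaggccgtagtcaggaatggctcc

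Mybph, beyond the 3′ end, chr1:136141877-136142176, plus strand: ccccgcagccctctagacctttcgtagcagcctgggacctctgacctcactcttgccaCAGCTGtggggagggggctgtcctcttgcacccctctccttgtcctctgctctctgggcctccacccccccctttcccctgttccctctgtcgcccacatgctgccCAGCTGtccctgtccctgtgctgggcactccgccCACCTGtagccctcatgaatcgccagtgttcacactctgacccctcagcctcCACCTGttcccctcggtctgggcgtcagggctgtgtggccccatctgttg

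The third set holds the myomesin regions, shown for a region called for myogenin and p300 in opposite conditions, a promoter called with bexarotene and an intron called in all lists.

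Myom1, intron 5, chr17:71388175-71388474, plus strand: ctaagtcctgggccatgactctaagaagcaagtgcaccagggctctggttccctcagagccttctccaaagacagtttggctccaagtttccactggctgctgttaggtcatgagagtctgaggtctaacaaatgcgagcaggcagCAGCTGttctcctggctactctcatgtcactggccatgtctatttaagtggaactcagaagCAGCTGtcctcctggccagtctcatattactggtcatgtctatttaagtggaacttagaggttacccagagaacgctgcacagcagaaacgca

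Myom2, promoter, chr8:15056933-15057100, plus strand: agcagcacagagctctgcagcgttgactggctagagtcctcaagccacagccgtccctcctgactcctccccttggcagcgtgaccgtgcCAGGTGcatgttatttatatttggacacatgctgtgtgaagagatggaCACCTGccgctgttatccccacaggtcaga

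Myom2, intron 6, chr8:15072759-15073058, plus strand: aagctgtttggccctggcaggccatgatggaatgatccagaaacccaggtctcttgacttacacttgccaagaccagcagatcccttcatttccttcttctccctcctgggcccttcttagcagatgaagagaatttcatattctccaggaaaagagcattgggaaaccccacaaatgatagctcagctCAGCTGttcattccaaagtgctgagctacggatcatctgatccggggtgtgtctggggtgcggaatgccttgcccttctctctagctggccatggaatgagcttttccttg

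Myogenin intervals lay within 50 kb of 7 of the 8 genes in either condition, and Mybpc3, the cardiac myosin-binding protein C gene, had none. Of all protein-coding genes, 32.3% had a Myog_Ctl interval and 32.9% a Myog_Bex interval at that distance. For p300, 6 genes had an interval in Ctl, where 53.8% of all genes did, and 6 had one in Bex, where 35.2% did. Both myogenin lists called 7 of the genes (23.9% of all genes), both p300 lists 5 (32.2%), and all 4 lists called Ttn, Mybpc1, Myom1 and Myom2, 4 genes (14.7%).

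The lists gave 16 Myog_Ctl, 17 Myog_Bex, 19 p300_Ctl and 11 p300_Bex intervals at these genes. Because long genes have long windows, intervals were also counted per 100 kb. Myog_Ctl gave 1.0 per 100 kb at the 8 genes and 0.313 over the windows of all protein-coding genes, and Myog_Bex 1.06 against 0.345. The p300_Ctl list gave 1.19 against 1.05, and p300_Bex 0.688 against 0.432. With each gene left out in turn, a step added after the data had been seen, the myogenin densities stayed between 0.804 and 1.23, above those of gene windows as a whole. The p300 densities rested on Myom1, and without it they fell below those of gene windows, to 0.646 in Ctl and 0.359 in Bex.

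**Figure D1:**
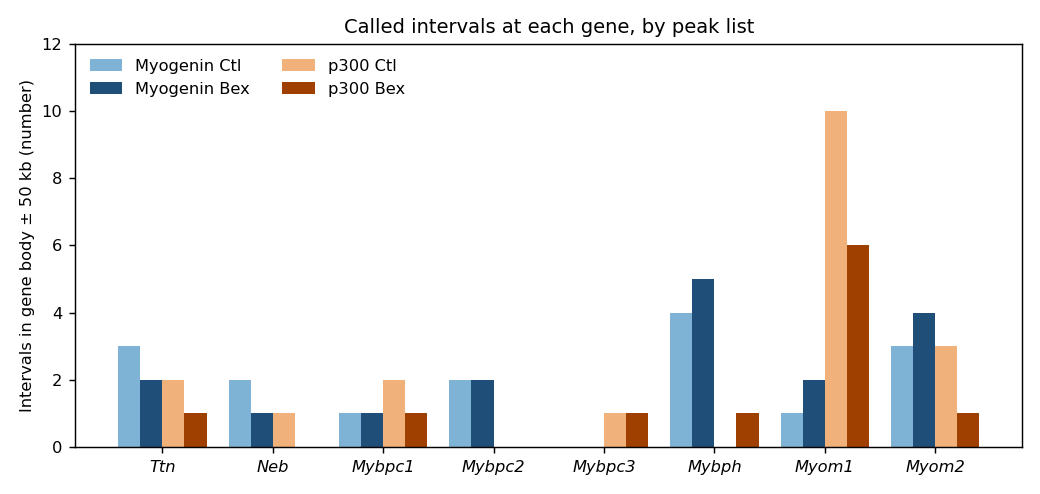
Number of intervals (vertical axis) in the body or within 50 kb of each of the 8 genes, with 1 bar per peak list. Myom1 carried 10 p300_Ctl and 6 p300_Bex intervals against 1 Myog_Ctl and 2 Myog_Bex, whereas Mybph carried 4 Myog_Ctl and 5 Myog_Bex against 0 p300_Ctl and 1 p300_Bex.

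The genes differed in which factor had most of the called intervals, and a factor without a call was not shown to be absent. Mybph had 10 intervals, of which 9 were for myogenin, and Mybpc2 had 4, all for myogenin. Myom1 had 19 intervals, of which 16 were for p300, and both intervals of Mybpc3 were for p300. Ttn (8), Mybpc1 (5), Neb (4) and Myom2 (11) carried both factors, as did Mybph and Myom1.

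A center within 1 kb of a start of the gene itself was found for 3 of 63 intervals (4.76%), 17 (27%) lay in its introns, and 43 (68.3%) lay outside the gene, 7 of them within 1 kb of the start of another protein-coding gene. Counting the start of any protein-coding gene, 18.8% of Myog_Ctl, 11.8% of Myog_Bex, 10.5% of p300_Ctl and 27.3% of p300_Bex intervals at the 8 genes had a center within 1 kb, against 24.2%, 12.5%, 11.0% and 12.4% of the lists. The p300_Bex share was 3 of 11 (9.75 to 56.6), all at starts of other genes, and each of the 4 list values was within counting error. For only 16 of the 43 intervals outside the gene was the gene's own start the nearest protein-coding start, so an interval near a gene is not thereby assigned to it. Ttn, Mybpc1, Mybpc2 and Mybpc3 had no interval centered in the gene body in any list. The body carried a Myog_Ctl interval in 3 genes (Neb, Mybph and Myom2; 10.1% of all genes), a Myog_Bex interval in 4 (the same and Myom1; 10.3%), a p300_Ctl interval in 3 (Neb, Myom1 and Myom2; 20.4%) and a p300_Bex interval in 2 (Myom1 and Myom2; 11.6%).

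**Figure D2:**
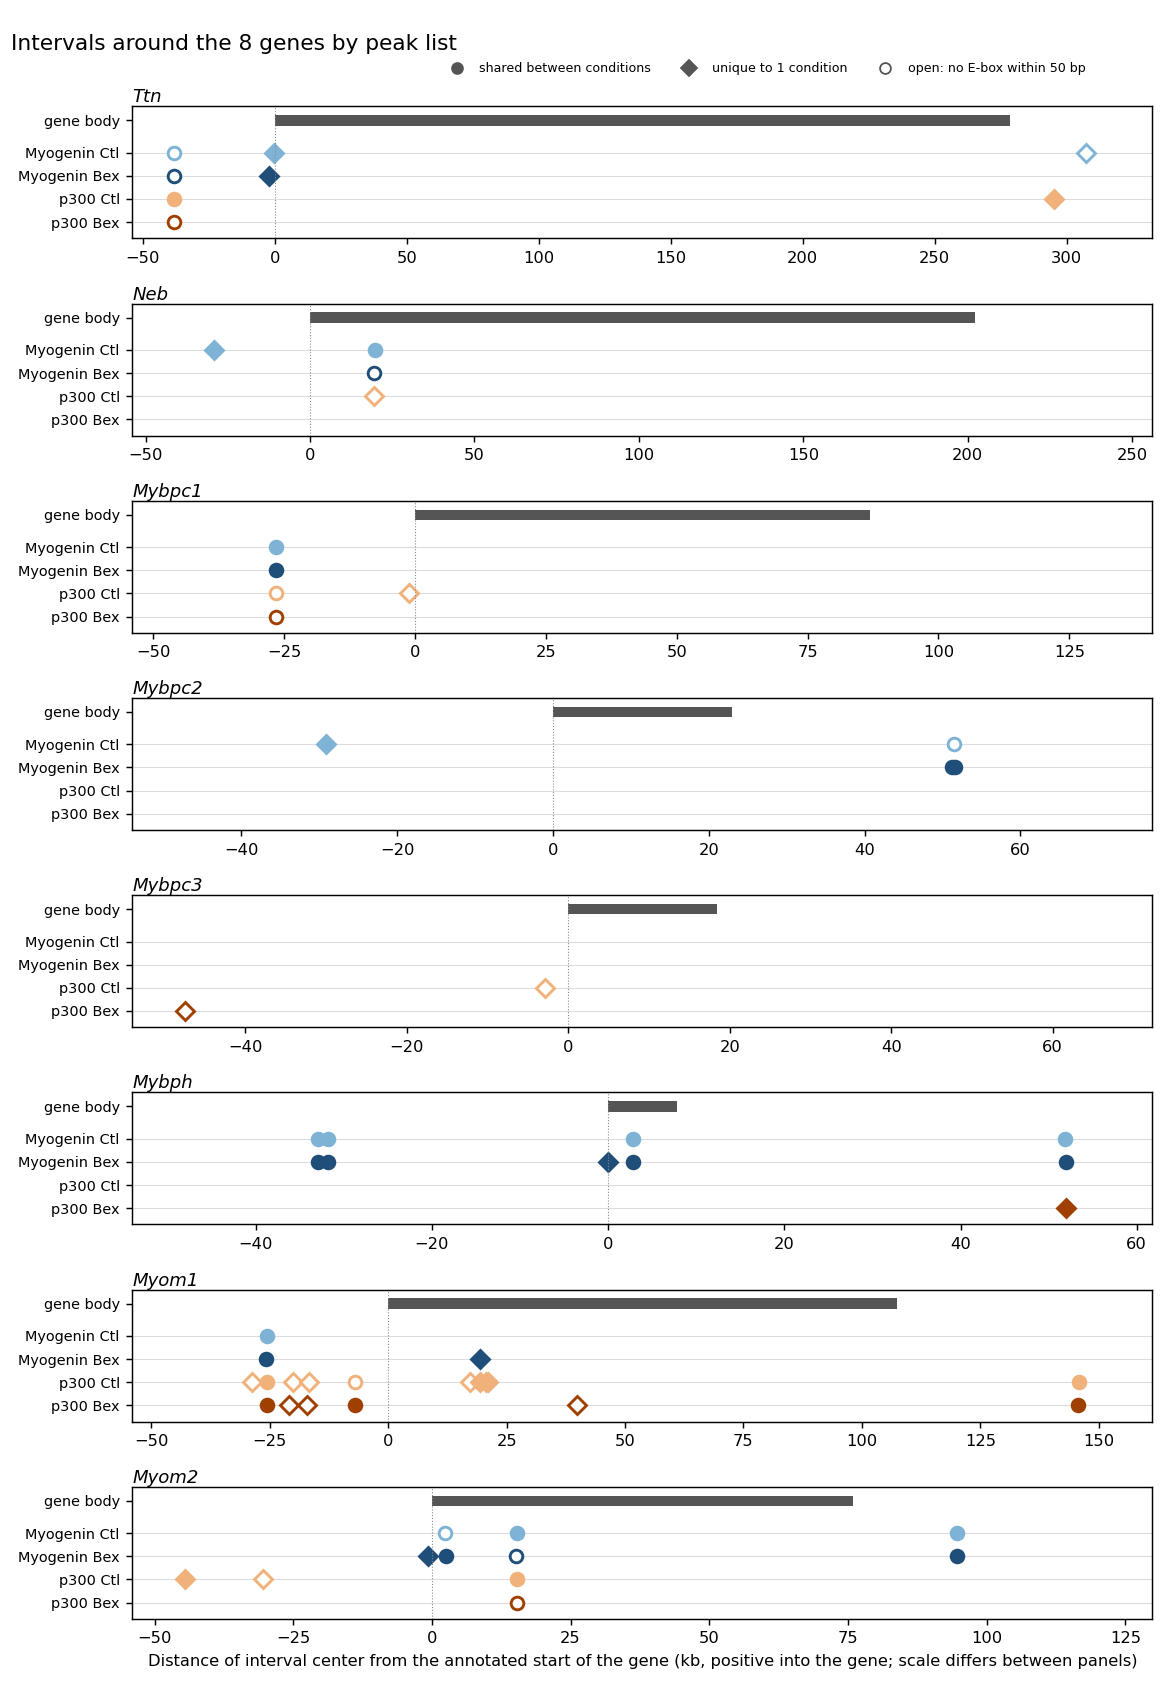
Position of every interval along each gene window in kb from the gene's start, with upstream to the left and the gene body drawn as a bar. Each row is a peak list, circles are shared between conditions, diamonds are unique to 1 condition and open symbols have no E-box within 50 bp of the center. The body of Ttn is empty in all 4 lists while the introns of Myom1 and Myom2 carry intervals.

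Ttn (titin, chr2:76542037-76820604, minus strand) is 279 kb long and carried no interval from its start to its end. An empty body was shared by 321 of 954 protein-coding genes of 200 kb or longer (33.6%). The myogenin interval nearest to the start was different in each condition. In Ctl it was chr2:76820820-76820991, centered 302 bp upstream, 172 bp long and unique to Ctl, with a CAGGTG 29 bp from its center. In Bex it was chr2:76822653-76822864, centered 2155 bp upstream, 212 bp long and unique to Bex, with a CAGCTG 30 bp from its center. The 2 intervals do not overlap, and no p300 interval of either condition overlapped them.

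The remaining upstream region of Ttn was called in every list. It lies in intron 21 of Ccdc141, about 38 kb from the start of Ttn. Myogenin covered chr2:76858790-76859163 in Ctl (374 bp) and chr2:76858510-76859041 in Bex (532 bp). For p300, the interval was chr2:76858800-76859040 in Ctl (241 bp) and chr2:76858885-76859082 in Bex (198 bp). The stretch common to all 4 lists is 156 bp. The center of Myog_Ctl was 56 bp from that of p300_Ctl, and the center of Myog_Bex was 208 bp from that of p300_Bex.

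Beyond the 3′ end of Ttn, a Myog_Ctl interval of 172 bp lay 209 bp from the start of Plekha3, and a p300_Ctl interval of 159 bp lay in intron 4 of Plekha3. Both were unique to Ctl and at the smallest length of their list.

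Neb (nebulin, chr2:51992167-52194318, minus strand) carried its main region in intron 10 of 156, about 20 kb into the gene. Myog_Ctl called chr2:52174518-52174689 (172 bp), Myog_Bex chr2:52174504-52174969 (466 bp), and p300_Ctl chr2:52174504-52175127 (624 bp). No p300_Bex interval was called there, and the nearest to the start of Neb was 332243 bp away. The region holds 2 CAGCTG E-boxes and a match to the MEF2 consensus, which lay within 100 bp of the center in 1 of 16 Myog_Ctl and 1 of 17 Myog_Bex intervals at the 8 genes, against 0.930% and 1.08% of those lists. The other Neb interval, chr2:52223336-52223507, was Myog_Ctl only, 172 bp long and 29.1 kb upstream.

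**Figure D3:**
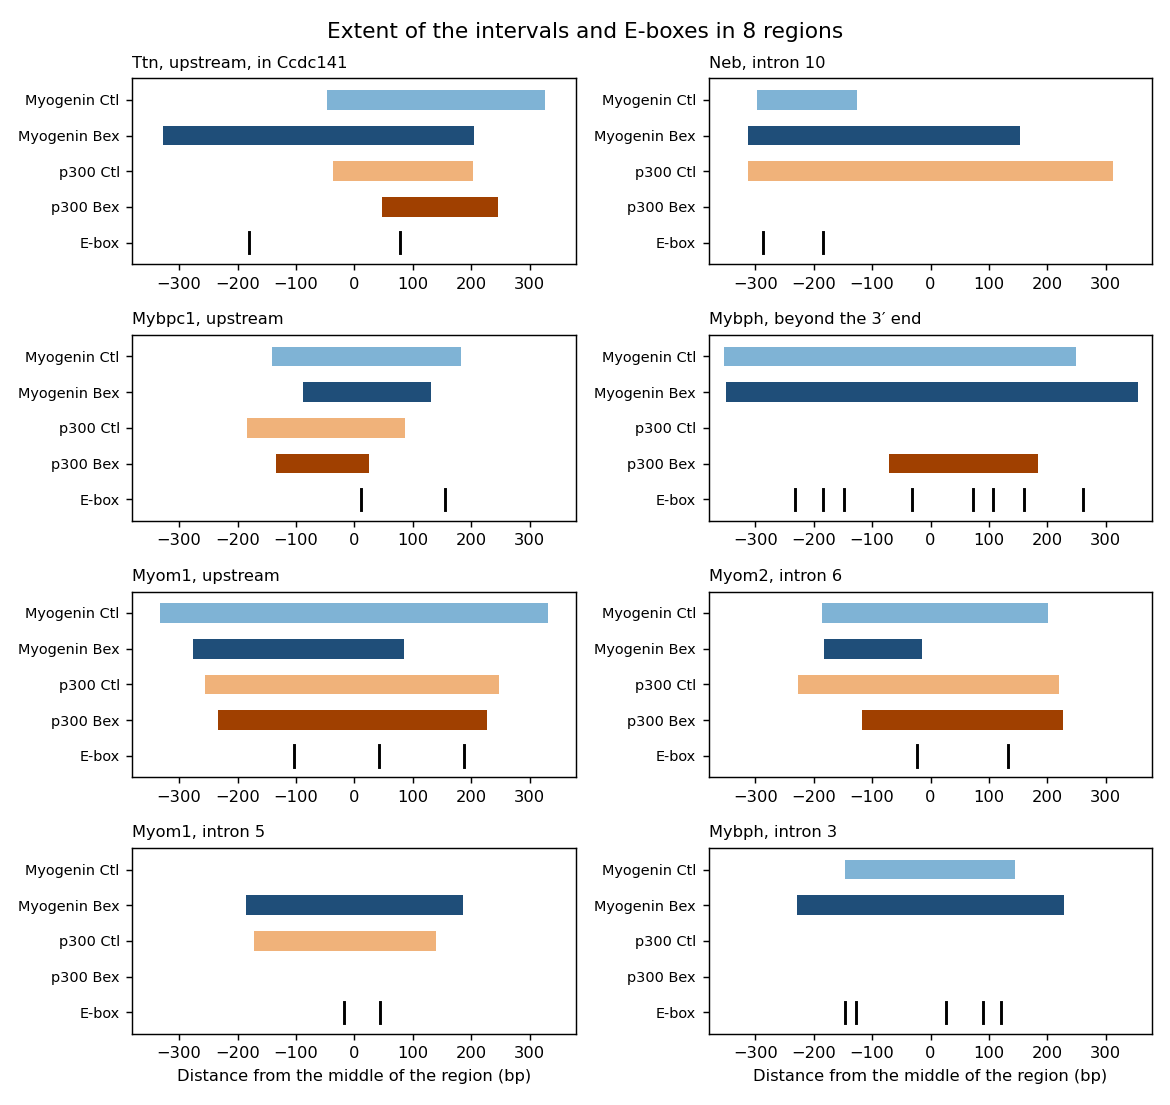
Close view of 8 regions at 6 of the genes, with distance from the region's middle in bp on the horizontal axis in genome orientation, 1 bar per interval and 1 tick per E-box. The region upstream of Mybpc1 shows bars of all 4 lists, and Myom1 intron 5 shows a Myog_Bex bar over a p300_Ctl bar with no bar from the other 2 lists.

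Mybpc1 (slow skeletal myosin-binding protein C, chr10:87981024-88067897, minus strand) had 1 region called in all 4 lists, 26.6 kb upstream and outside any protein-coding gene. Myog_Ctl covered chr10:88094372-88094696 (325 bp) and Myog_Bex chr10:88094425-88094643 (219 bp). Their centers were the same base, 9 bp from a CAGCTG. The p300 centers lay 69 bp (Ctl) and 76 bp (Bex) from the myogenin center. A p300_Ctl interval of 391 bp, chr10:88068898-88069288, lay 1196 bp upstream of the start and was unique to Ctl.

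Mybpc2 (fast skeletal myosin-binding protein C, chr7:51757088-51780039, minus strand) had myogenin intervals and no p300 interval. Beyond its 3′ end, Myog_Ctl called a single interval of 577 bp, chr7:51728317-51728893, with 5 E-boxes. Over the same ground Myog_Bex called a pair, chr7:51728266-51728491 (226 bp, 3 E-boxes) and chr7:51728711-51728925 (215 bp, 2 E-boxes). The start of Josd2, not of Mybpc2, is the nearest. A Myog_Ctl interval of 172 bp, unique to Ctl, lay 116 bp from the start of Nr1h2, which encodes the nuclear receptor LXR beta, a partner of retinoid X receptors.

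Mybpc3 (cardiac myosin-binding protein C, chr2:90958301-90976673, plus strand) had a p300_Ctl interval of 159 bp, chr2:90955323-90955481, 2899 bp upstream, and a p300_Bex interval of 158 bp, chr2:90910702-90910859, 207 bp from the start of Slc39a13. Each was unique to its condition, at the smallest length of its list and without an E-box. The nearest myogenin intervals lay 56.8 kb (Ctl) and 56.1 kb (Bex) from the gene body, just outside the 50 kb limit.

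Mybph (myosin-binding protein H, chr1:136090025-136097808, plus strand) was the shortest gene of the set at 7.78 kb and had the most myogenin intervals, 9. The start of Mybph was the nearest for 3 of them, that of Chi3l1 for the 4 farthest upstream and that of Adora1 for the 2 beyond the 3′ end. In Bex alone, an interval of 168 bp, chr1:136089899-136090066, was centered 42 bp upstream of the start and covered a CAGCTG. The other myogenin regions, 4 in number, were called in both conditions and were longer in Bex in each. They measured 215 and 277 bp at 32.9 kb upstream, 172 and 258 bp at 31.8 kb upstream, 292 and 458 bp in intron 3, and 604 and 704 bp beyond the 3′ end, in Ctl and Bex. The centers of Ctl and Bex differed by 0, 4, 1 and 55 bp.

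The region beyond the 3′ end, nearest to Adora1, was the only Mybph region with a called p300 interval. The lists do not show that p300 was absent where no interval was called. The p300_Bex interval chr1:136141899-136142153 (255 bp, 4 E-boxes) lay wholly inside both myogenin intervals, and no p300_Ctl interval was called within 50 kb, the nearest to the start of Mybph being 93372 bp away. That p300 interval was called in Bex while the myogenin intervals around it were called in both conditions.

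Myom1 (myomesin 1, chr17:71368861-71476196, plus strand) had the most p300 intervals, 16, and 13 of the 37 merged regions of the set. The start of Myom1 was the nearest for 7 of these 16, and the start of another gene for 9, of which 4 lay within 1 kb of it. Those 4 were a p300_Ctl interval of 271 bp 40 bp from the start of Myl12b, and at 2900073G15Rik p300_Bex intervals of 158 bp at 660 and 124 bp and a p300_Ctl interval of 159 bp at 113 bp from the start. A further p300_Ctl interval of 159 bp lay 1330 bp from the start of 2900073G15Rik, and all 5 were unique to their condition. Upstream, the region chr17:71342842-71343505 was called in all 4 lists. It covers part of exon 4, the last, of 2900073G15Rik (Myl12a, a myosin regulatory light chain gene), 25.7 kb from the start of Myom1. Its lengths were 664 bp (Myog_Ctl), 362 bp (Myog_Bex), 504 bp (p300_Ctl) and 461 bp (p300_Bex), and all 3 of its E-boxes are CAGCTG. The centers of Myog_Ctl and p300_Ctl lay 4 bp apart.

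In intron 5 of 36 the factors were called in opposite conditions. Myog_Bex called chr17:71388155-71388526 (372 bp) and p300_Ctl called chr17:71388169-71388480 (312 bp), with centers 16 bp apart, and neither Myog_Ctl nor p300_Bex had an interval there. Its 2 CAGCTG E-boxes start at 71388321 and 71388382. The 61 bases from each start, E-box included, match at 53 positions (86.9%), so that the E-boxes lie in 2 similar copies. This comparison of the copies was made after the sequence was seen. Unique p300_Ctl intervals lay in intron 4 (250 bp) and, at the smallest length of 159 bp, at 2 further places in intron 5, and a unique p300_Bex interval of 236 bp lay in intron 10. Both p300 lists called the region 7 kb upstream, with 159 bp in Ctl and 158 bp in Bex, and a region near Lpin2 beyond the 3′ end, with 369 bp and 158 bp.

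Myom2 (myomesin 2, chr8:15057653-15133541, plus strand) had a Myog_Bex interval at its promoter, chr8:15056933-15057100 (168 bp), centered 636 bp upstream with a CAGGTG and a CACCTG and unique to Bex. With Mybph, this made 2 of the 8 genes with a Myog_Bex promoter interval (3.72% of all genes had one), and Ttn made 1 with a Myog_Ctl promoter interval (6.05%). Each of these promoter intervals was unique to its condition and had the smallest length of its list. No gene of the set had a p300 interval at its promoter in Ctl (10.6% of all genes) or Bex (5.23%), with promoters taken to 1 kb. The p300_Ctl interval 1196 bp upstream of Mybpc1 counts as a promoter interval at 2 kb, which gives 4 of 63 intervals (6.35%). With all transcript starts counted, 5 of 63 intervals (7.94%) were promoter intervals, and with 500 bp 2 of 63 (3.17%) were.

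Within Myom2, intron 6 was called in all 4 lists. Its lengths were 387 bp (Myog_Ctl), 168 bp (Myog_Bex), 448 bp (p300_Ctl) and 345 bp (p300_Bex), around 2 CAGCTG E-boxes. In intron 1, Myog_Ctl (172 bp) and Myog_Bex (168 bp) overlapped by 67 bp, and beyond the 3′ end a pair measured 237 and 212 bp. In intron 6 and beyond the 3′ end the Ctl interval was the longer, whereas every Mybph pair was longer in Bex. The intron 1 pair has the smallest length of each list, so its lengths say nothing of width.

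Of the 37 merged regions at the 8 genes, 22 were called in 1 list, 9 in 2, 2 in 3 and 4 in all 4. Over all 30106 merged regions, 66.3% were called in 1 list, and 3.14% in all 4. The regions called in all 4 lists were those of Ttn in Ccdc141, of Mybpc1 upstream, of Myom1 in 2900073G15Rik and of Myom2 in intron 6, and each holds a CAGCTG.

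An interval was called unique when it shared no base with the same factor's list of the other condition. At the 8 genes 4 of 16 Myog_Ctl intervals were unique (25.0%, 10.2 to 49.5), against 49.4% of that list. Of Myog_Bex, 4 of 17 were unique (23.5%, 9.56 to 47.3) against 54.9%. Of p300_Ctl, 13 of 19 were (68.4%, 46.0 to 84.6) against 67.3%, and of p300_Bex 5 of 11 (45.5%, 21.3 to 72.0) against 20.3%. The myogenin shares lay below their lists, and the background of Myog_Ctl fell just inside the upper bound while that of Myog_Bex fell outside. The unique p300_Bex intervals lay within 1 kb of the starts of Slc39a13 and 2900073G15Rik, nearest to Adora1, and in intron 10 of Myom1. The p300_Bex share lay above its list, whose value fell just outside the lower bound. That excess was within counting error with a reciprocal overlap of 50% (54.5%, 28.0 to 78.7, against 45.4%). The same held with centers within 200 bp (45.5%, 21.3 to 72.0, against 23.1%) and with 10 kb around the genes (33.3%, 6.15 to 79.2, against 20.3%). The list value stayed outside the bounds with 100 kb (42.9%, 21.4 to 67.4) and among the 5 intervals longer than the smallest (40.0%, 11.8 to 76.9, against 7.73%). The myogenin shares stayed below their lists when centers within 200 bp counted as overlap, at 37.5% against 49.7% for Myog_Ctl and 41.2% against 55.3% for Myog_Bex. Both list values were then inside the bounds (18.5 to 61.4 and 21.6 to 64.0). The shares also stayed below among intervals longer than the smallest, at 0.00% against 26.6% and 15.4% against 33.3%. Here too both list values were inside the bounds (0.00 to 29.9 and 4.33 to 42.2). With a reciprocal overlap of 50%, the gap was gone, with 56.2% against 55.1% and 58.8% against 60.0%. The window mattered as well, since Myog_Bex stood at 50.0% (4 of 8, 21.5 to 78.5) with 10 kb around the genes and at 38.5% (10 of 26, 22.4 to 57.5) with 100 kb, and both bounds hold the 54.9% of the list.

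All 4 unique Myog_Ctl intervals (2 of Ttn, 1 each of Neb and Mybpc2) had the smallest length of that list, 172 bp. Over both conditions 6 of 8 unique myogenin intervals had the smallest length of their list, against 5 of 25 shared ones, and in the whole lists the shares were 72.3% of unique and 30.2% of shared intervals. For p300 the counts were 11 of 18 unique and 4 of 12 shared, against 50.0% and 25.4%. By list the smallest length was held by 7 of 16 Myog_Ctl (54.8% of that list), 4 of 17 Myog_Bex (50.0%), 9 of 19 p300_Ctl (34.3%) and 6 of 11 p300_Bex (48.9%) intervals.

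**Figure D4:**
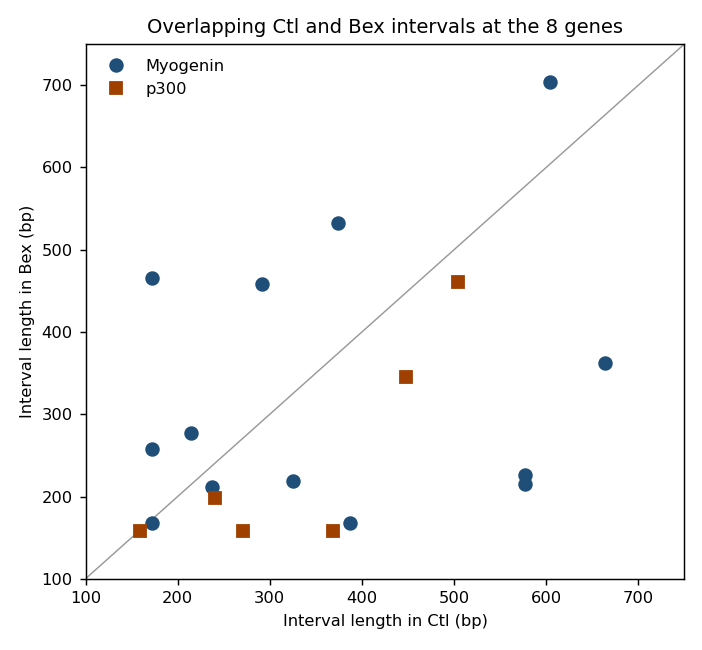
Interval length in bp in Ctl against Bex for the overlapping pairs at the 8 genes, with myogenin as circles, p300 as squares and a line where both lengths are equal. All 6 p300 pairs were longer in Ctl, 1 of them only by the smallest lengths of the lists, and of the 13 myogenin pairs 6 were longer in Bex.

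Pairs of overlapping intervals gave a comparison of width. Of 13 myogenin pairs, 6 were longer in Bex (4 of Mybph, 1 each of Ttn and Neb) and 7 in Ctl (3 of Myom2, 2 of Mybpc2, 1 each of Mybpc1 and Myom1), and of all such pairs 45.4% were longer in Bex and 54.1% in Ctl. The smallest length differs between the lists, so a pair with both intervals at that length has a fixed direction. Without such pairs, a rule added after the data had been seen, 6 of 12 myogenin pairs were longer in Ctl (45.7% of all). For p300, 6 of 6 pairs were longer in Ctl, as were 90.1% of all p300 pairs, so the direction at these genes is that of the lists as a whole. The Myom1 pair 7 kb upstream, at 159 and 158 bp, has the smallest length in both lists, and without it 5 of 5 pairs were longer in Ctl (89.4% of all).

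Myog_Ctl had an E-box no more than 50 bp from the center in 12 of 16 intervals (75.0%, 50.5 to 89.8) against 47.7% of that list, and Myog_Bex in 14 of 17 (82.4%, 59.0 to 93.8) against 60.3%. For p300 it did in 8 of 19 Ctl intervals (42.1%, 23.1 to 63.7) against 19.6%, and in 4 of 11 Bex intervals (36.4%, 15.2 to 64.6) against 25.2%. The backgrounds of Myog_Bex and p300_Bex were inside the bounds. Myog_Ctl and p300_Ctl stood above their lists by more than counting error under this definition with the 50 kb window. With 100 kb around the genes, Myog_Ctl stood at 61.9% (40.9 to 79.2) and p300_Ctl at 28.2% (16.5 to 43.8). With 10 kb they stood at 80.0% (37.6 to 96.4) and 33.3% (12.1 to 64.6). Both of these windows put the list values of 47.7% and 19.6% inside the bounds. With any CANNTG counted as an E-box, p300_Ctl stood at 47.4% against 49.5% and p300_Bex at 45.5% against 53.5%, no longer above their lists, Myog_Ctl at 75.0% against 67.0%, within counting error, and Myog_Bex at 100% (81.6 to 100) against 78.9%. With CAGCTG as the only E-box counted, the myogenin shares came near their lists, at 43.8% against 36.5% for Myog_Ctl (23.1 to 66.8) and 52.9% against 48.6% for Myog_Bex, while p300_Ctl stood at 42.1% against 15.8% and p300_Bex at 27.3% against 20.5%. With CAGCTG alone, the p300_Ctl list value was outside the bounds (23.1 to 63.7). It was also outside over the whole interval (68.4%, 46.0 to 84.6, against 38.1%). The same held among intervals above the smallest length (50.0%, 23.7 to 76.3, against 20.1%). The Myog_Ctl list value was inside the bounds under these rules. Intervals of different lists cover the same regions, so the 4 shares are not independent.

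Intervals that overlapped the other factor in the same condition were 5 of 16 Myog_Ctl (31.2%, 14.2 to 55.6) against 33.0% of the list and 5 of 17 Myog_Bex (29.4%, 13.3 to 53.1) against 25.6%. The Myog_Bex share was 11.8% against 17.2% of the list with a reciprocal overlap of 50% and 12.5% (1 of 8) with 10 kb around the genes, so its place above or below the list was not stable. For p300 they were 5 of 19 in Ctl (26.3%, 11.8 to 48.8) against 8.79% and 5 of 11 in Bex (45.5%, 21.3 to 72.0) against 18.5%. With a reciprocal overlap of 50%, 4 of 19 p300_Ctl (4.92% of the list) and 2 of 11 p300_Bex intervals (12.5%) remained. With centers within 200 bp, 4 of 19 (8.24%) and 4 of 11 (17.9%) remained. The p300_Bex excess thus depended on the overlap rule. These p300 shares were not recomputed with other windows. With 1 shared base, the genes in Ctl were Ttn, Neb, Mybpc1, Myom1 and Myom2, and in Bex Mybph took the place of Neb.

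**Figure D5:**
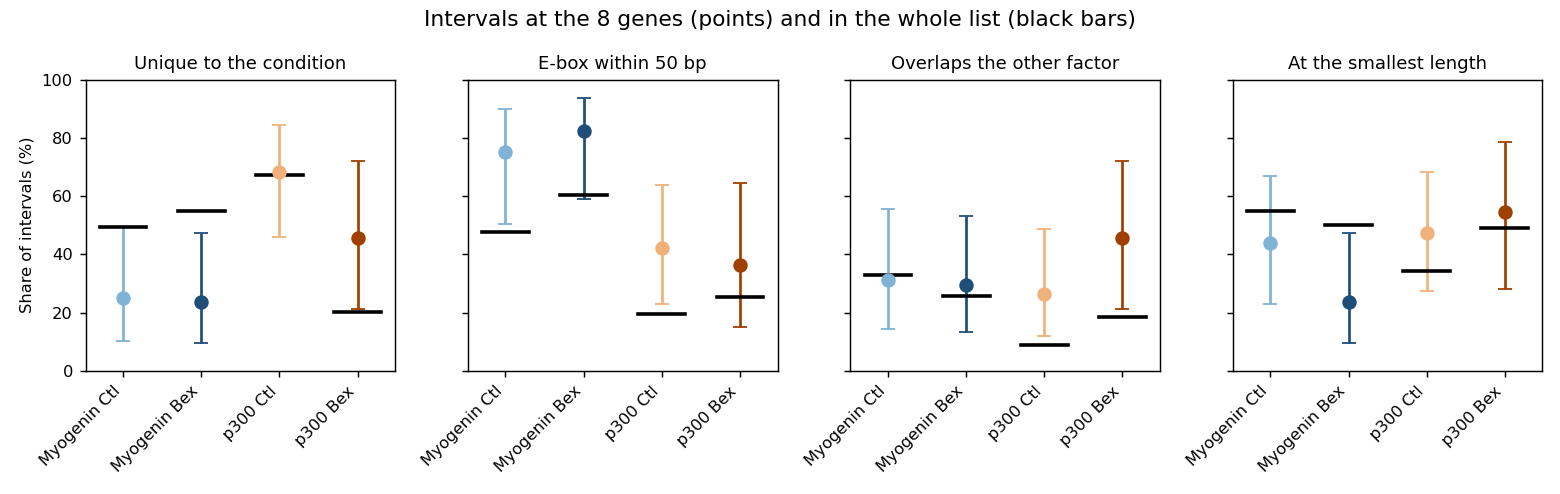
Share of intervals in percent at the 8 genes (points, with 95% Wilson intervals) and in the whole list (black bars), for each peak list and property. The myogenin points for unique intervals sit below their lists, and those for E-boxes above.

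Further motifs were sought up to 100 bp from each center. GGAATG, the core bound by TEAD factors, was found in 5 of 16 Myog_Ctl intervals (31.2%, 14.2 to 55.6, against 16.7% of the list) and 8 of 17 Myog_Bex intervals (47.1%, 26.2 to 69.0, against 19.1%). AGGTCA, the core of nuclear receptor sites, was found in 5 of 16 (31.2%, 14.2 to 55.6, against 12.6%) and 7 of 17 (41.2%, 21.6 to 64.0, against 13.5%), and Mybph held 3 of these Myog_Ctl and 4 of these Myog_Bex intervals. In the p300 lists GGAATG was found in 5 of 19 Ctl (18.7% of the list) and 4 of 11 Bex intervals (18.9%), and AGGTCA in 5 of 19 (10.8%) and 1 of 11 (11.3%). TGACTCA or TGAGTCA, the site of AP-1 and related bZIP factors, was found in 5 of 19 p300_Ctl (27.8% of the list) and 5 of 11 p300_Bex intervals (27.1%), and in 2 of 16 Myog_Ctl (10.4%) and 2 of 17 Myog_Bex (12.6%). TGTGGT, the core bound by Runx factors, was found in 2 of 16 Myog_Ctl (25.6%), 3 of 17 Myog_Bex (29.6%), 4 of 19 p300_Ctl (31.1%) and 4 of 11 p300_Bex (32.7%). No p300 interval of the genes had a MEF2 match within that distance of its center in Ctl (0.599% of the list) or Bex (0.645%), although the p300_Ctl interval of Neb covers the match in intron 10 farther from its center. A CArG box was found in 1 of 16 Myog_Ctl intervals (that beyond the 3′ end of Mybpc2; 0.896% of the list) and in no interval of Myog_Bex (0.979%), p300_Ctl (1.12%) or p300_Bex (1.04%). For AGGTCA, the Mybph regions upstream and beyond the 3′ end and the upstream Myom1 region were counted in both myogenin lists. The Ctl and Bex shares are therefore not independent, and the shares of these motifs were not recomputed under other rules. The matched letters are a description of the sequence and not a bound site.

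The sequences just before the gene starts were scanned as well, a step added after the data had been seen. In the 250 bp upstream, 6 of 8 genes held an E-box (26.7% of all genes), all but Myom1 and Myom2. A match to the MEF2 consensus was found in 3 (Ttn, Mybpc3 and Myom2, 0.456% of all genes) and a CArG box, the site of serum response factor, in 3 (Neb, Myom1 and Myom2, 1.34%). The genes with a MEF2 match are shown, with the E-box, MEF2 and CArG matches in capitals and the base next to the start last.

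Ttn, 250 bp upstream, chr2:76820605-76820854, minus strand: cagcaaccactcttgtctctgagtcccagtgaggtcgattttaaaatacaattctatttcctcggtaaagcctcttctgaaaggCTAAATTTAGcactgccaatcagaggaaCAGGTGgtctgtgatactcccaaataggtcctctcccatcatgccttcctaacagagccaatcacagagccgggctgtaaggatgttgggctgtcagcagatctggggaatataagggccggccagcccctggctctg

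Mybpc3, 250 bp upstream, chr2:90958051-90958300, plus strand: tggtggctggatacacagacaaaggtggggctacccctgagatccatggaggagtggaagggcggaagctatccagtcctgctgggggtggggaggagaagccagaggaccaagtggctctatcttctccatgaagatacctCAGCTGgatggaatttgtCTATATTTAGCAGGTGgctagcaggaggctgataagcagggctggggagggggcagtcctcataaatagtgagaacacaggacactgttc

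Myom2, 250 bp upstream, chr8:15057403-15057652, plus strand: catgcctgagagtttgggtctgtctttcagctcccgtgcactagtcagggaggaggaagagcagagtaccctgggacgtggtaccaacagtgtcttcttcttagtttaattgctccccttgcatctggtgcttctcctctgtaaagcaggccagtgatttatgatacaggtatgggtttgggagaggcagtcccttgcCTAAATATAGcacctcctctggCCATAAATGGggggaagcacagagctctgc

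In Mybpc3 the MEF2 match, 90 bp before the start, runs straight into a CAGGTG at 80 bp, and no myogenin or p300 interval covers it. In Ttn the MEF2 match lies 166 bp and the CAGGTG 138 bp before the start, and the Myog_Ctl promoter interval, whose edge lies farther upstream, covers neither.

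Because the 50 kb limit decides which intervals count, the nearest ones beyond it are given. They were p300_Ctl intervals 51.0 kb from Mybpc3 and 51.1 kb from Ttn and a Myog_Bex interval 51.2 kb from Ttn, and the farthest interval inside, of p300_Bex, lay 47.4 kb from Mybpc3.

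Among 39 other sarcomere genes, 28 had a Myog_Ctl interval within 50 kb (71.8%, 56.2 to 83.5), 27 Myog_Bex (69.2%, 53.6 to 81.4), 24 p300_Ctl (61.5%) and 24 p300_Bex (61.5%), and 12 had all 4. Over all protein-coding genes the shares were 32.3%, 32.9%, 53.8% and 35.2%, and 14.7% had all 4, so the p300_Ctl share (45.9 to 75.1) was within counting error of that of all genes. By group, 11 of 13 titin and M-band partners had a Myog_Ctl interval and 9 a Myog_Bex interval, against 8 and 7 of 13 Z-disc genes and 7 and 7 of 8 thin filament genes. For p300 the Ctl and Bex counts were 8 and 8, 11 and 8, and 5 and 7 in the same order. The counts in the same order were 5, 5, 3 and 4 for Lmod3, which encodes a leiomodin of the thin filament, and 6, 6, 4 and 0 for Ankrd23, an ankyrin-repeat protein that binds titin. Of the closest relatives of the 8 genes, Myom3 had 1, 3, 0 and 1, Nebl had 0, 1, 0 and 0, and Mybphl had none.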

How the data were processed

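C2C12 cells were profiled by ChIP-seq for myogenin and p300 with 0 or 50 nM bexarotene. By the study's methods, the authors aligned reads to mm9 with BWA-MEM (myogenin) or Bowtie (p300), dropped duplicate reads (Picard) and called peaks in the factor style of HOMER. The deposited lists hold interval start and end positions (starts counted from 0) and no count or score, so the depth behind an interval is unknown. The H3K27me3 and input samples were not used here.

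Intervals were assigned to genes of GENCODE vM1 when they touched the gene body or 50 kb around it. Promoter means a center within 1 kb of a protein-coding start of the gene. Overlap means 1 shared base, and regions merge overlapping intervals of the 4 lists. E-boxes were counted within 50 bp and other motifs within 100 bp of the center. Shares have 95% Wilson intervals. With 1 library per condition no test was made. Python 3.11.15, pandas 2.3.3 and pysam 0.24.0 were used, and the functions for overlap and motif search were tested on simulated data. Printed regions were named by their role in the comparisons. The genes and lists were chosen with earlier results of these data known, and the farther upstream Ttn interval, the Mybph intron and the upstream sequences were chosen after their values were seen. Alternatives changed the window, the overlap, the promoter distance and starts, the p300 lists used for overlap, the E-box and the smallest length.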

Additional observations from a re-analysis of the deposited data

How the results depend on the processing

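Of 100 values recomputed under 15 alternatives, 1 of them added after seeing the data, 71 stayed within their counting interval or within 1.5 times the main count, and 29 did not. With the gene body alone there were 4 Myog_Ctl, 6 Myog_Bex, 6 p300_Ctl and 2 p300_Bex intervals, the unique share of Myog_Ctl and the E-box share of p300_Bex were 0.00%, and by construction 0.00% lay outside. With 10 kb there were 5, 8, 9 and 3 intervals, 50.0% of Myog_Bex was unique (54.9% of the list at any distance), 12.5% of it overlapped p300 and 20.0% of all intervals lay outside. With 100 kb there were 26 Myog_Bex and 39 p300_Ctl intervals, and 80.0% lay outside. The E-box shares of Myog_Ctl (61.9%, 40.9 to 79.2) and p300_Ctl (28.2%, 16.5 to 43.8) were then within counting error of their lists (47.7% and 19.6%). With only intervals above the smallest length, 9 Myog_Ctl, 10 p300_Ctl and 5 p300_Bex intervals remained, and 0.00% of Myog_Ctl was unique (26.6% of that list). A reciprocal overlap of 50% gave unique shares of 56.2% (Myog_Ctl) and 58.8% (Myog_Bex), near those of the lists (55.1% and 60.0%), and 11.8% of Myog_Bex overlapped p300. CAGCTG alone gave E-box shares of 43.8% and 52.9%, against 36.5% and 48.6% of the lists, so the excess of the Myog_Ctl share over its list was within counting error. Any CANNTG gave 100% of Myog_Bex (78.9% of the list), 75.0% of Myog_Ctl (67.0%), 47.4% of p300_Ctl (49.5%) and 45.5% of p300_Bex (53.5%). The whole interval gave 100% of Myog_Bex (77.2%), 87.5% of Myog_Ctl (64.0 to 96.5, against 65.2%), 68.4% of p300_Ctl (38.1%) and 63.6% of p300_Bex (40.7%). No paired analysis was possible because each condition has 1 library and the labels carry no replicate numbers. The cause of these shifts was not tested beyond the change of rule itself, and the depth behind each interval is unknown.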
